A study of Bos taurus with 16 samples.

Results

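The proteasome genes of bovine theca interna cells are described here: the 40 genes of 9155 named on the array whose symbol starts with PSMA, PSMB, PSMC, PSMD, PSME, PSMF or PSMG. Where a gene had several probe sets, the one with the highest mean over the 16 arrays stands for it, which applied to 6 of the 40 genes. Theca interna cells form the androgen-producing layer of the ovarian follicle wall and were grown from pooled follicles of cattle ovaries. All groups shared a serum-free primary culture of 6 days, and treatment ran from day 3. The groups were LH+BMP6 (luteinising hormone at 160 pg/ml and bone morphogenetic protein 6 at 10 ng/ml), BMP6 alone, LH alone and an untreated control, with 4 Affymetrix bovine arrays each from separate batches of ovaries. The array reads RNA of the whole culture, so fewer cells of a type and less RNA per cell cannot be told apart.

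The proteasome degrades proteins that carry ubiquitin chains. Its 20S core stacks outer rings of alpha subunits (PSMA) on inner rings of beta subunits (PSMB). PSMB5, PSMB6 and PSMB7 cut the protein chain, with chymotrypsin-like, caspase-like and trypsin-like activity in that order. Interferon gamma induces replacements for these 3 subunits: PSMB8 takes the place of PSMB5, PSMB9 that of PSMB6 and PSMB10 that of PSMB7, which turns the particle into the immunoproteasome. The 19S cap holds ATPases (PSMC) that unfold the substrate and further subunits (PSMD) that bind ubiquitin or remove it. PSME1 and PSME2 form the alternative cap PA28, PSMF1 encodes the inhibitor PI31, and the PSMG genes encode chaperones that help the core to assemble. These roles are known from human, mouse and yeast proteasomes. The immunoproteasome can make peptides that cells present on MHC class I.

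Of the 40 genes, 39 encode subunits, activators, an inhibitor or assembly factors, and PSME3IP1 matched by symbol only, since it encodes a binding partner of the activator PSME3. PSMA2, PSMA8, PSMD3, PSMD7, PSMD8, PSMD12, PSME3 and PSMG4 were not analysed here. The genes' mean log2 signals ran between 7.44 for PSMG3 and 11.87 for PSMA6. The lowest value of any member on any array was 7.24, while the lower quartile of single arrays lay between 4.31 and 4.43. The spread within a treatment group was small, with a median SD of 0.10 over the members and 0.14 over all named genes. PSMF1 spanned 1.08 log2 units over the 16 arrays, PSMB8 0.75, PSMB9 0.73 and PSMB10 0.71.

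Within a group the pairwise r over probe sets was 0.990 to 0.997. Spiked-in hybridisation controls (9 probe sets) were faint on 3 of the 16 arrays, namely LH replicate 1 and control replicates 1 and 3. Their mean log2 signal was 8.66 to 8.71 there and 9.84 to 10.17 on the other 13 arrays. All 3 faint arrays were without BMP6, so faint signal is partly confounded with BMP6 in both tests of it. Calls that were lost without the 3 faint arrays are therefore also given without them. The actin 3 prime minus 5 prime difference, a sign of RNA quality, averaged 1.72 ± 0.28 with LH+BMP6, 1.86 ± 0.28 with BMP6, 2.10 ± 0.16 with LH and 2.20 ± 0.35 in control (SD, n = 4 each). The theca markers INSL3 and CYP17A1 were present in control cultures, at 14.08 ± 0.19 and 7.38 ± 0.85. Of the 6 theca markers 5 fell in BMP6 against control and 6 in LH+BMP6 against LH, by limma, while 15.5% of all named genes fell in each. Of 14 leukocyte markers 4 rose in BMP6 against control and 9 in LH+BMP6 against LH, while 9.31% and 11.7% of all named genes rose. Their mean log2 signal per array was 8.04 to 8.32 with LH+BMP6, 7.77 to 8.34 with BMP6, 6.81 to 7.62 with LH and 7.33 to 7.60 in control. Of 6 endothelial markers 1 fell in each test of BMP6, and 0 of 3 granulosa and 0 of 2 red cell markers were called. The part of these shifts in the results below was not tested.

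The immunoproteasome genes fell in BMP6 against control, and so did the inhibitor PSMF1 and, close to the threshold, the core subunit PSMB3. With LH present (LH+BMP6 against LH), 3 of 5 immunoproteasome genes were called lower, beside 15.5% of all named genes. In BMP6 against control 7 of 40 proteasome genes fell, 0 rose and 33 were not called by limma at an adjusted p under 0.05 over all 24016 probe sets. Of all named genes, 15.5% fell and 9.31% rose in this comparison (24.8% in either direction), so the share of the proteasome genes that fell was near that of the array as a whole. No proteasome gene with a positive difference had an unadjusted p under 0.05 either. The 7 were PSMB8, PSMB9, PSMB10, PSME1, PSME2, PSMF1 and PSMB3. The PA28 genes PSME1 and PSME2 are counted here with the 3 catalytic subunits as 5 immunoproteasome genes. The activator PSME4 is counted with the other 35. The 7 thus include all 5 immunoproteasome genes and 2 of the other 35. The median difference was -0.11 over the 40 genes, -0.41 over the 5 immunoproteasome genes and -0.07 over the other 35, against -0.02 over all named genes (log2). Values of all 4 BMP6 arrays lay below all 4 control arrays for 13 members, where 19.4% of all named genes did so. The reverse held for 0 members and 11.3% of all named genes.

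**Figure D1:**
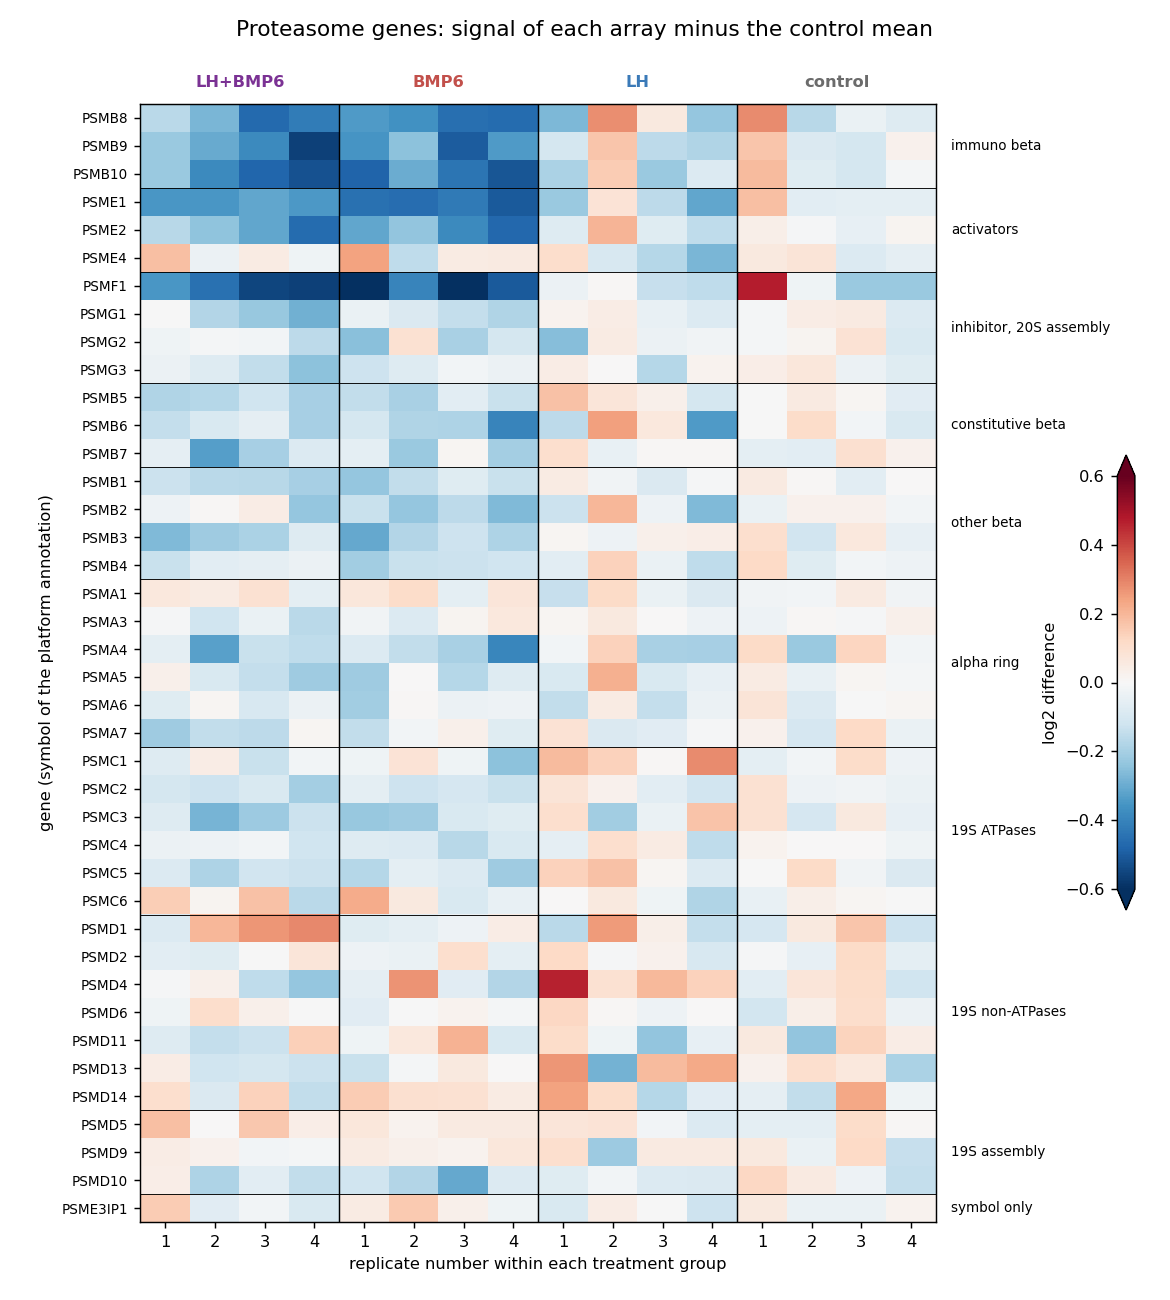
Log2 signal of each of the 40 genes (rows, grouped by role) on each of the 16 arrays (columns, 4 per treatment group) minus the mean of the 4 control arrays, with blue below and red above that mean. The rows of PSMB8, PSMB9, PSMB10, PSME1, PSME2 and PSMF1 are blue on all 8 arrays with BMP6, and control replicate 1 is the reddest array in the PSMF1 row.

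Among the catalytic immunoproteasome subunits, PSMB10 read 11.22, 11.05, 10.96 and 10.92 on the LH+BMP6 arrays, 10.96, 11.14, 11.00 and 10.92 on the BMP6 arrays, 11.25, 11.59, 11.22 and 11.36 on the LH arrays, and 11.63, 11.37, 11.33 and 11.43 on the control arrays. Every array with BMP6 was below every control array, and every LH+BMP6 array was below every LH array, by a narrow margin at their nearest. The difference was -0.43 ± 0.09 in BMP6 against control (SE, limma adjusted p = 0.00289) and -0.32 ± 0.09 in LH+BMP6 against LH (adjusted p = 0.02). PSMB10 therefore fell in both tests of BMP6, 1.35-fold and 1.25-fold.

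PSMB8 read 10.94, 10.83, 10.63 and 10.68 with LH+BMP6, 10.76, 10.74, 10.65 and 10.64 with BMP6, 10.83, 11.38, 11.16 and 10.87 with LH, and 11.38, 10.94, 11.06 and 11.02 in control. The BMP6 and control arrays did not overlap, whereas the LH+BMP6 and LH arrays did. PSMB8 fell in BMP6 against control (-0.41 ± 0.12, limma adjusted p = 0.02, 1.32-fold) and was not called in LH+BMP6 against LH (-0.29 ± 0.12, adjusted p = 0.0874). The call in BMP6 against control was lost without control replicate 1, the highest control array (-0.31, adjusted p = 0.0815), and without BMP6 replicate 4 (-0.39, adjusted p = 0.0562). The call in LH+BMP6 against LH was gained without LH replicate 1, the lowest LH array (-0.37, adjusted p = 0.0443). Without the 3 faint arrays it was -0.28 (adjusted p = 0.162) in BMP6 against control, and -0.37 (adjusted p = 0.0317) in LH+BMP6 against LH.

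PSMB9, a neighbour of PSMB8 in the MHC region, read 11.58, 11.50, 11.42 and 11.23 with LH+BMP6, 11.44, 11.55, 11.30 and 11.46 with BMP6, 11.69, 11.96, 11.64 and 11.62 with LH, and 11.96, 11.71, 11.69 and 11.82 in control. Neither pair of groups overlapped. PSMB9 fell in BMP6 against control (-0.36 ± 0.09, limma adjusted p = 0.00973, 1.28-fold) and in LH+BMP6 against LH (-0.30 ± 0.09, adjusted p = 0.0271, 1.23-fold). Without the 3 faint arrays the differences were -0.33 (adjusted p = 0.0786) and -0.31 (adjusted p = 0.0509).

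Of the PA28 genes, PSME1 had the smallest adjusted p of all members in BMP6 against control. It read 11.36, 11.36, 11.40 and 11.37 with LH+BMP6, 11.26, 11.25, 11.29 and 11.21 with BMP6, 11.49, 11.79, 11.55 and 11.40 with LH, and 11.89, 11.65, 11.65 and 11.65 in control. The arrays with BMP6 sat very close together, the control arrays lay above them, and 1 LH array reached down to the LH+BMP6 values. PSME1 fell in BMP6 against control (-0.46 ± 0.08, limma adjusted p = 0.00044, 1.37-fold), and kept that call without the 3 faint arrays (-0.40, adjusted p = 0.00923). In LH+BMP6 against LH it was not called (-0.19 ± 0.08, adjusted p = 0.099), though it was without LH replicate 4, the lowest LH array (-0.24, adjusted p = 0.041). The interaction of LH and BMP6, which tests the difference between these 2 changes, was 0.27 ± 0.11 for PSME1 (unadjusted p = 0.0204, limma adjusted p = 1.00), so a difference between the 2 tests was not shown.

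PSME2 read 11.08, 11.01, 10.94 and 10.79 with LH+BMP6, 10.94, 11.01, 10.87 and 10.78 with BMP6, 11.17, 11.46, 11.18 and 11.10 with LH, and 11.29, 11.25, 11.20 and 11.27 in control. Neither pair of groups overlapped, although the highest LH+BMP6 array was close to the lowest LH array. PSME2 fell in BMP6 against control (-0.35 ± 0.08, limma adjusted p = 0.00515, 1.28-fold) and in LH+BMP6 against LH (-0.27 ± 0.08, adjusted p = 0.0232, 1.21-fold). Without the 3 faint arrays these were -0.36 (adjusted p = 0.0435) and -0.29 (adjusted p = 0.053). The remaining activator on the array, PSME4, which encodes the large cap protein PA200, was not called in either test, at 0.05 ± 0.09 and 0.15 ± 0.09 (adjusted p = 0.796 and 0.288).

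PSMF1 had the largest difference of all members in both tests. It read 9.07, 8.97, 8.86 and 8.86 with LH+BMP6, 8.81, 9.02, 8.81 and 8.91 with BMP6, 9.38, 9.42, 9.28 and 9.26 with LH, and 9.89, 9.39, 9.19 and 9.19 in control. All 8 arrays with BMP6 were below all 8 arrays without it, and control replicate 1 stood well above the other control arrays. PSMF1 fell in BMP6 against control (-0.53 ± 0.12, limma adjusted p = 0.00485, 1.44-fold) and in LH+BMP6 against LH (-0.40 ± 0.12, adjusted p = 0.0255, 1.32-fold). Without control replicate 1 the first difference was -0.37 (adjusted p = 0.00717), and without the 3 faint arrays the differences were -0.40 (adjusted p = 0.0158) and -0.38 (adjusted p = 0.00828). The assembly chaperone genes PSMG1, PSMG2 and PSMG3 were not called, with differences between -0.12 and -0.06 in BMP6 against control and between -0.16 and 0.01 in LH+BMP6 against LH.

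**Figure D2:**
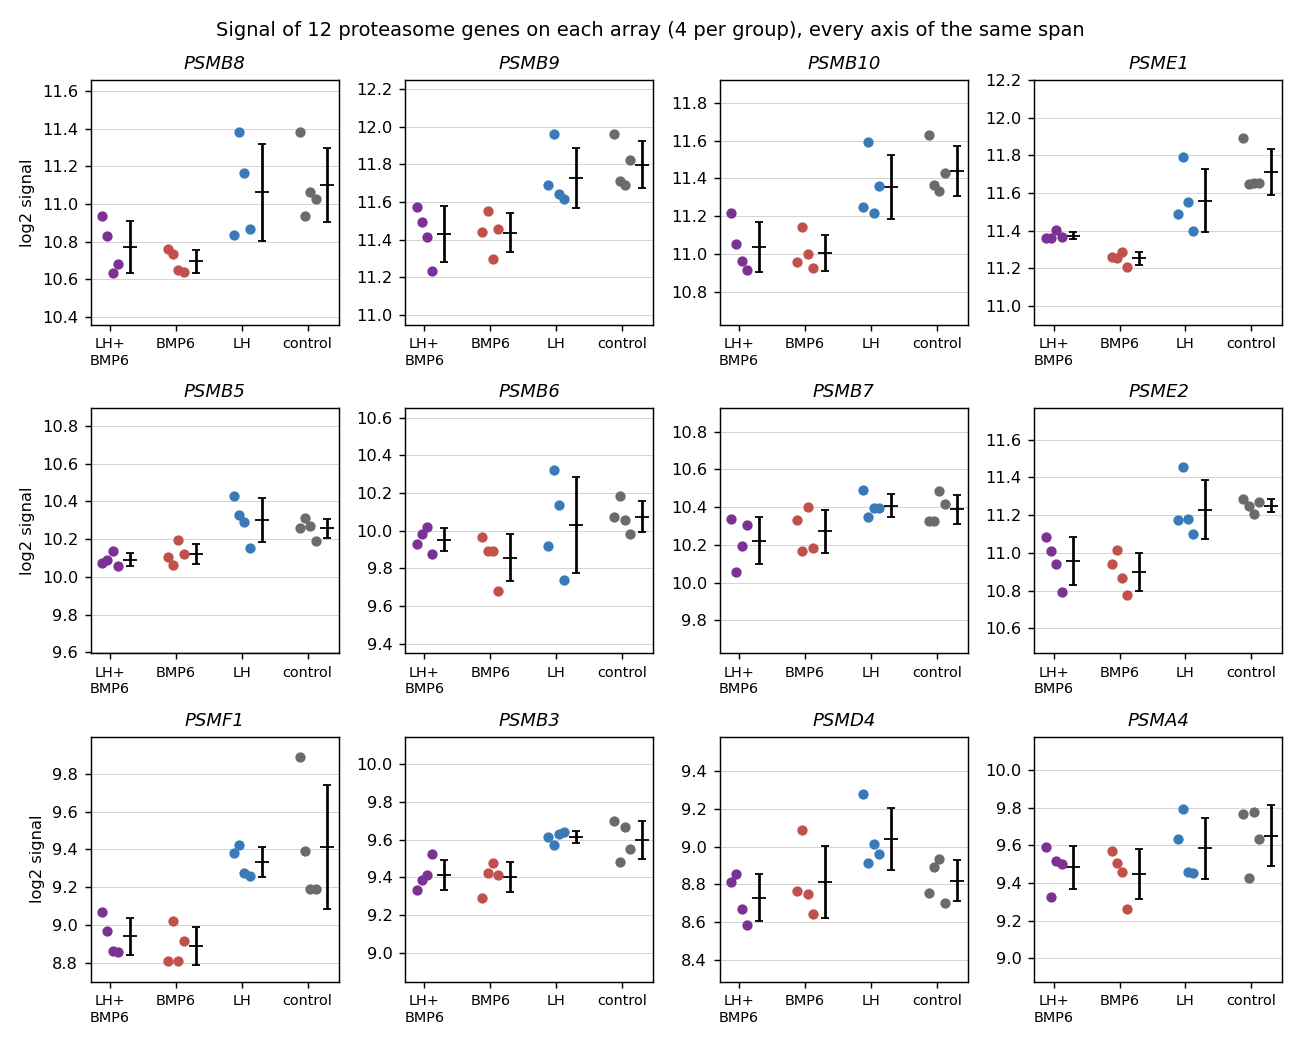
Log2 signal of 12 proteasome genes on each array (points), with the mean and SD of the 4 arrays of each group beside them, and every vertical axis spanning the same number of log2 units. In the PSMF1 panel the 8 arrays with BMP6 lie at or below 9.07 and the 8 without it at or above 9.19, whereas in the PSMB6 and PSMA4 panels the LH and LH+BMP6 points overlap.

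The constitutive catalytic subunits were mostly not called. PSMB5 read 10.07, 10.09, 10.14 and 10.06 with LH+BMP6, 10.11, 10.06, 10.19 and 10.12 with BMP6, 10.43, 10.33, 10.29 and 10.15 with LH, and 10.26, 10.31, 10.27 and 10.19 in control. It fell in LH+BMP6 against LH (-0.21 ± 0.06, limma adjusted p = 0.0244, 1.16-fold), where the groups did not overlap, and was not called in BMP6 against control (-0.14 ± 0.06, adjusted p = 0.158). The call was lost without LH replicate 1, the highest LH array (-0.17, adjusted p = 0.092), and narrowly without LH+BMP6 replicate 1, 2 or 4 (adjusted p = 0.0514, 0.0502 and 0.0553). Without the 3 faint arrays it was -0.17 (adjusted p = 0.126).

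PSMB6 read 9.93, 9.98, 10.02 and 9.88 with LH+BMP6, 9.97, 9.89, 9.89 and 9.68 with BMP6, 9.92, 10.32, 10.14 and 9.74 with LH, and 10.07, 10.19, 10.06 and 9.98 in control. The BMP6 arrays were below the control arrays by a small step, while the LH arrays spread across the LH+BMP6 range, and neither test called PSMB6 (-0.22 ± 0.10, limma adjusted p = 0.163, and -0.08 ± 0.10, adjusted p = 0.672). PSMB7 read 10.34, 10.06, 10.19 and 10.31 with LH+BMP6, 10.33, 10.17, 10.40 and 10.19 with BMP6, 10.49, 10.35, 10.39 and 10.40 with LH, and 10.33, 10.33, 10.49 and 10.41 in control. The BMP6 and control arrays overlapped, and the LH+BMP6 arrays were just below the LH arrays. It was not called either (-0.12 ± 0.07, limma adjusted p = 0.326, and -0.18 ± 0.07, adjusted p = 0.0956).

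Each immunoproteasome subunit was set against the constitutive subunit it replaces by taking the log2 difference of the 2 genes on each array. Only the change of that difference between groups is meaningful, because signals of different probe sets are not on a common scale. For PSMB10 minus PSMB7 the values were 0.63, 0.98, 0.60 and 0.74 with BMP6, against 1.30, 1.04, 0.85 and 1.01 in control. The 2 groups overlapped, and the change was -0.32 ± 0.13 (exact two-sided permutation p = 0.0571, adjusted p = 0.514 over 12 tests). For PSMB8 minus PSMB5 they were 0.65, 0.67, 0.46 and 0.52 with BMP6, against 1.13, 0.63, 0.79 and 0.84 in control, a change of -0.27 ± 0.12 (exact permutation p = 0.0857, adjusted p = 0.514). For PSMB9 minus PSMB6 the change was -0.14 ± 0.12 (exact permutation p = 0.286, adjusted p = 0.61).

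In LH+BMP6 against LH the same 3 changes were -0.13 ± 0.14 for PSMB10 and PSMB7, -0.08 ± 0.16 for PSMB8 and PSMB5, and -0.22 ± 0.10 for PSMB9 and PSMB6, with exact permutation p = 0.429, 0.629 and 0.143. All 6 changes with BMP6 were negative, but 0 of the 12 differences tested passed the threshold, also unadjusted. With 4 against 4 arrays no p can lie below 0.0286, so a pair at that floor could not pass on its own after adjustment. The adjusted p values therefore cannot decide whether the immunoproteasome subunits fell more. By the unadjusted p a larger fall than that of their constitutive partners was not shown. By limma, 3 of 3 immunoproteasome and 0 of 3 constitutive subunits were called lower in BMP6 against control. In LH+BMP6 against LH these counts were 2 of 3 and 1 of 3, while 15.5% of all named genes fell in each. Such counts do not test whether 1 set of subunits fell more than the other.

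**Figure D3:**
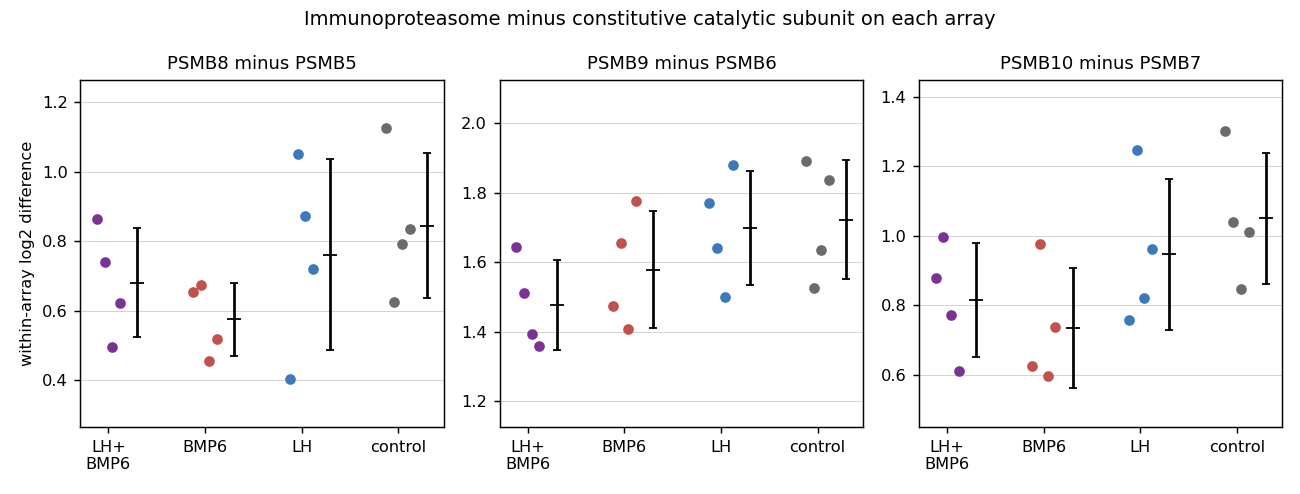
Log2 signal of each immunoproteasome subunit minus that of the constitutive subunit it replaces, on each array (points), with the mean and SD of the 4 arrays of each group beside them. The BMP6 points for PSMB8 minus PSMB5 lie between 0.46 and 0.67 and overlap the control points, which lie between 0.63 and 1.13.

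Outside the catalytic subunits PSMB3 was the only gene of the 20S core that was called. PSMB3, a structural beta subunit, read 9.33, 9.39, 9.41 and 9.52 with LH+BMP6, 9.29, 9.42, 9.48 and 9.41 with BMP6, 9.61, 9.57, 9.63 and 9.64 with LH, and 9.70, 9.48, 9.66 and 9.55 in control. Neither pair of groups overlapped, but the highest BMP6 array was only just below the lowest control array. PSMB3 fell by the same amount in both tests (-0.20 ± 0.07, limma adjusted p = 0.0478 in BMP6 against control and 0.043 in LH+BMP6 against LH, 1.15-fold in each), both close to the threshold. The call in BMP6 against control was lost in 21 of 32 alternative settings, and that in LH+BMP6 against LH in 16. Leaving out control replicate 1, control replicate 3 or BMP6 replicate 1 raised the adjusted p of the BMP6 against control test most (0.15, 0.118 and 0.136), and leaving out LH+BMP6 replicate 1 did so in the other test (0.113). Without the 3 faint arrays the differences were -0.12 (adjusted p = 0.451) and -0.20 (adjusted p = 0.0784).

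The other structural beta subunits PSMB1, PSMB2 and PSMB4 had differences between -0.20 and -0.15 in BMP6 against control, with the groups apart for all 3 (limma adjusted p between 0.0684 and 0.124), and were not called. With PSMB3 included, the median of these 4 genes was -0.17 in BMP6 against control and -0.09 in LH+BMP6 against LH. An unadjusted limma p under 0.05 was reached by 4 and 2 of them, and by 3479 and 3610 of the 9155 named genes. Of the 6 alpha subunits measured, 0 were called in either test, and 0 had an unadjusted p under 0.05. Their differences lay between -0.20 and 0.05 in BMP6 against control and between -0.11 and 0.07 in LH+BMP6 against LH. PSMA4 had the widest difference among them and read 9.59, 9.33, 9.52 and 9.50 with LH+BMP6, 9.57, 9.51, 9.46 and 9.26 with BMP6, 9.63, 9.79, 9.46 and 9.45 with LH, and 9.76, 9.43, 9.78 and 9.64 in control. Both pairs of groups overlapped (-0.20 ± 0.10, limma adjusted p = 0.181, and -0.10 ± 0.10, adjusted p = 0.547).

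The 19S genes were not called in BMP6 against control, where 0 of 16 passed by limma (1 at an unadjusted p under 0.05) and their median difference was -0.02. In LH+BMP6 against LH 1 of 16 fell. This was PSMD4, the ubiquitin receptor of the cap, which read 8.81, 8.85, 8.67 and 8.59 with LH+BMP6, 8.76, 9.09, 8.75 and 8.64 with BMP6, 9.28, 8.91, 9.02 and 8.96 with LH, and 8.75, 8.89, 8.93 and 8.70 in control. The LH arrays lay above all LH+BMP6 arrays, and LH replicate 1 was the highest of the 16. PSMD4 fell in LH+BMP6 against LH (-0.31 ± 0.10, limma adjusted p = 0.0406, 1.24-fold) and differed by -0.01 ± 0.10 in BMP6 against control (adjusted p = 0.97). Its LH against control value was 0.22 ± 0.10 (adjusted p = 0.914), and the interaction was -0.30 ± 0.15 (unadjusted p = 0.0533, adjusted p = 1.00). Its dimmer probe set, at -0.38 ± 0.10, was also called lower in LH+BMP6 against LH (adjusted p = 0.00987). The call of the brighter probe set was lost without LH replicate 1 (-0.23, adjusted p = 0.146), LH replicate 3 (-0.32, adjusted p = 0.0637), LH+BMP6 replicate 3 (-0.29, adjusted p = 0.102) or LH+BMP6 replicate 4 (-0.26, adjusted p = 0.11). Without the 3 faint arrays it was -0.23 (adjusted p = 0.171).

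Of the ATPases PSMC1 to PSMC6, 0 of 6 were called by limma in either test, with 0 and 3 at an unadjusted p under 0.05. PSMC1 had the widest difference and read 9.20, 9.32, 9.15 and 9.26 with LH+BMP6, 9.25, 9.36, 9.25 and 9.03 with BMP6, 9.47, 9.42, 9.29 and 9.56 with LH, and 9.22, 9.26, 9.39 and 9.25 in control. It was not called in LH+BMP6 against LH (-0.20 ± 0.08, limma adjusted p = 0.0874), where the groups overlapped. PSMC2, PSMC3 and PSMC5 had differences between -0.19 and -0.11 over both tests, without a call. The probe sets of PSMC6 disagreed in BMP6 against control: the brighter one differed by 0.04 ± 0.09 and was not called, while the dimmer one was called higher (0.28 ± 0.08, limma adjusted p = 0.0165), so the direction of PSMC6 depends on the probe set.

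The base chaperones PSMD5, PSMD9 and PSMD10, which help the ATPase ring to form, were not called. PSMD10, also known as gankyrin, read 8.17, 7.94, 8.06 and 7.98 with LH+BMP6, 8.01, 7.95, 7.82 and 8.05 with BMP6, 8.05, 8.11, 8.05 and 8.04 with LH, and 8.25, 8.18, 8.10 and 7.98 in control. Both pairs of groups overlapped (-0.17 ± 0.08, limma adjusted p = 0.145, and -0.02 ± 0.08, adjusted p = 0.876). PSMD14, the deubiquitinase of the cap, differed by 0.10 ± 0.10 and -0.03 ± 0.10 (adjusted p = 0.563 and 0.886). PSME3IP1 read 8.57, 8.35, 8.40 and 8.33 with LH+BMP6, 8.47, 8.57, 8.45 and 8.39 with BMP6, 8.33, 8.46, 8.41 and 8.29 with LH, and 8.48, 8.38, 8.38 and 8.44 in control, and its groups overlapped in both tests (0.05 ± 0.07 and 0.04 ± 0.07).

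**Figure D4:**
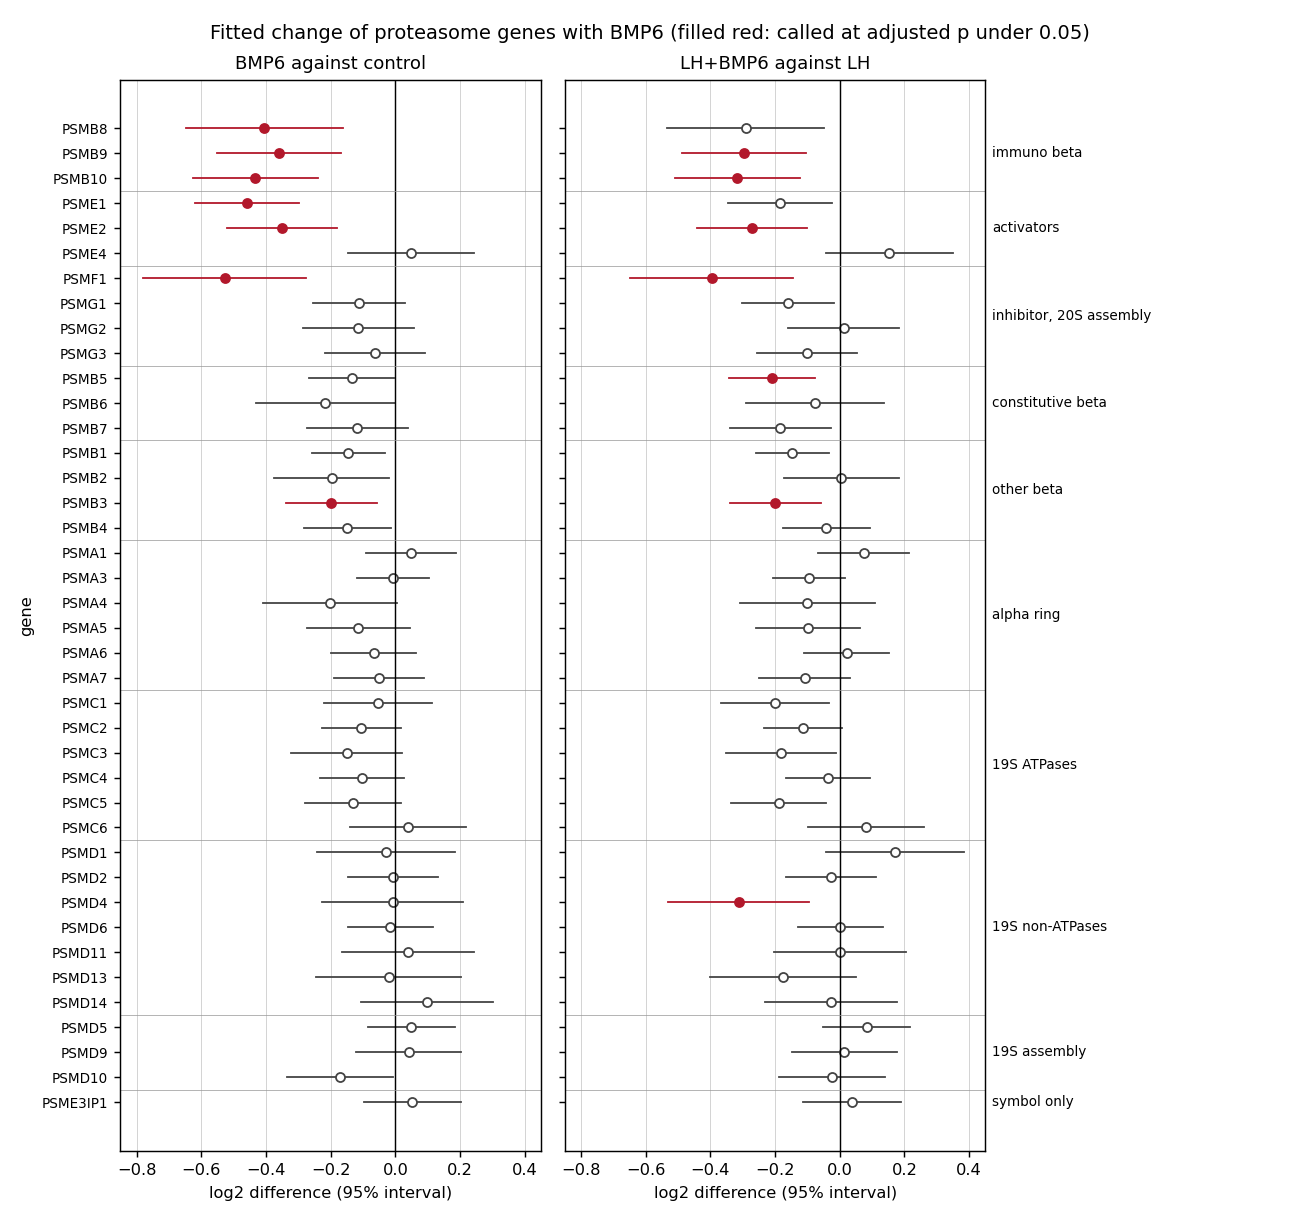
Fitted log2 difference of each of the 40 genes in BMP6 against control (left) and LH+BMP6 against LH (right), with 95% intervals from limma (bars) and filled red points for genes called at an adjusted p under 0.05. The red points all lie below 0: 7 in BMP6 against control, 5 of them immunoproteasome genes, and 7 in LH+BMP6 against LH, 3 of them immunoproteasome genes.

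Across the 40 genes, LH+BMP6 against LH gave 7 lower and 0 higher by limma, against 15.5% and 11.7% of all named genes (27.2% in either direction), and here too the share that fell was near that of the array. The 7 were PSMF1, PSMB10, PSMD4, PSMB9, PSME2, PSMB5 and PSMB3. Again 0 genes with a positive difference had an unadjusted p under 0.05. The median difference was -0.10 over the members and -0.03 over all named genes. For 9 members all LH+BMP6 arrays lay below all LH arrays, which 16.5% of all named genes did. The reverse held for 0 members and 11.4% of all named genes.

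The count of 7 in LH+BMP6 against LH depended on single arrays: it was 1 without LH+BMP6 replicate 3, 1 without LH+BMP6 replicate 4 and 4 without LH replicate 1. Without LH replicate 2 the adjusted p was 0.0649 for PSMB10, 0.0876 for PSMB9, 0.0729 for PSME2 and 0.0599 for PSMF1. Without LH+BMP6 replicate 3 it was 0.0622 for PSMB10, 0.0636 for PSMB9, 0.0567 for PSME2 and 0.0715 for PSMF1. Without LH+BMP6 replicate 4 it was 0.0607, 0.0908, 0.0778 and 0.0625 for the same genes in the same order, and PSMF1 was at 0.0636 without LH replicate 1. The differences of these 4 genes stayed negative in all 32 alternative settings. In BMP6 against control no single array ended the call of PSMB9, PSMB10, PSME1, PSME2 or PSMF1.

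The 2 tests of BMP6 share no arrays. PSMF1, PSMB10, PSMB9, PSME2 and PSMB3 fell in both, which is 71.4% of the genes called lower in each. Among all named genes these shares were 75.8% of those lower in BMP6 against control and 76.0% of those lower in LH+BMP6 against LH. Of the 40 members 34 had the same sign in both, and the 2 sets of differences correlated across genes at r = 0.71 (0.92 over all named genes), as a description of genes that are not independent. The falls were small. They lay between 1.15-fold and 1.44-fold in BMP6 against control and between 1.15-fold and 1.32-fold in LH+BMP6 against LH, while the median gene that fell did so 1.34-fold and 1.35-fold, and 0 members reached a factor of 2, which 124 and 145 genes that fell did.

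No proteasome gene was called with LH alone. In LH against control 0 of 40 were called and 1 had an unadjusted p under 0.05, while 0.0218% of all named genes rose and 0% fell. The groups overlapped for all 40, although 1.85% of all named genes lay higher and 1.2% lower on all 4 LH arrays. The differences lay between -0.15 for PSME1 and 0.22 for PSMD4, and the smallest adjusted p was 0.914. LH added to BMP6 (LH+BMP6 against BMP6) gave 0 calls by limma among the members and 0% among all named genes, with 0 members at an unadjusted p under 0.05. PSME1 read higher on all 4 LH+BMP6 arrays than on all 4 BMP6 arrays (0.12 ± 0.08, limma adjusted p = 1.00), as did 1.11% of all named genes, and 0 members read lower on all 4, as 0.634% of all named genes did. For the interaction 0 of 40 members and 0% of all named genes were called, and PSME1 was the only member with an unadjusted p under 0.05.

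Several of these genes sit next to each other in the genome (gene order of RefSeq assembly ARS-UCD2.0). PSMB8, TAP1 and PSMB9 follow each other, and TAP2 lies beyond 1 further gene on the PSMB8 side. TAP1 and TAP2 encode the transporter that carries peptides into the endoplasmic reticulum for class I loading. Neither was called in BMP6 against control (-0.05 ± 0.14 for TAP1, limma adjusted p = 0.874, and 0.13 ± 0.10 for TAP2, adjusted p = 0.467), although PSMB8 and PSMB9 on both sides of TAP1 fell. On the other side of PSMB9, BOLA-DMB, a class II gene, was not called in BMP6 against control (0.30 ± 0.20, adjusted p = 0.341) and rose in LH+BMP6 against LH (0.69 ± 0.20, adjusted p = 0.0196). That call was lost without LH+BMP6 replicate 1 (0.56, adjusted p = 0.0694) or the 3 faint arrays (0.43, adjusted p = 0.0717).

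PSME2 and PSME1 are separated by EMC9 alone. RNF31, the neighbour of PSME2 and the catalytic subunit of the linear ubiquitin ligase complex, fell in BMP6 against control (-0.27 ± 0.07, limma adjusted p = 0.0168) and was not called in LH+BMP6 against LH (-0.08 ± 0.07, adjusted p = 0.516). The RNF31 call was lost without control replicate 1 (-0.25, adjusted p = 0.0542), control replicate 2 (-0.23, adjusted p = 0.0619) or the 3 faint arrays (-0.23, adjusted p = 0.131). DCAF11, beyond PSME1, fell in both (-0.23 ± 0.08, adjusted p = 0.0434, and -0.35 ± 0.08, adjusted p = 0.00322). Its call in BMP6 against control was lost in 19 of 32 alternative settings, with -0.19 (adjusted p = 0.214) without the 3 faint arrays, and that in LH+BMP6 against LH in 0 of 32. IRF9, the interferon-signalling factor beyond RNF31, was not called (0.00 ± 0.11, adjusted p = 0.99, and 0.03 ± 0.11, adjusted p = 0.90). Next but 1 to PSMF1, ANGPT4, which encodes an angiopoietin, fell by more than PSMF1 itself (-1.59 ± 0.20, adjusted p = 4.3e-05, and -0.96 ± 0.20, adjusted p = 0.00263). Of the neighbours of PSMB10 measured, PSKH1, LCAT and SLC12A4 were not called in either test.

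Most genes that work with the proteasome were not called, as was true of all named genes. Of these, 24.8% were called in BMP6 against control and 27.2% in LH+BMP6 against LH. Of 15 proteasome-associated factors measured, 2 rose, 2 fell and 11 were not called in BMP6 against control, with a median of -0.09, where 9.31% of all named genes rose and 15.5% fell. UFD1, a cofactor of the segregase VCP, fell in BMP6 against control (-0.33 ± 0.07, limma adjusted p = 0.00507) and in LH+BMP6 against LH (-0.37 ± 0.07, adjusted p = 0.00182). With the probe set of largest variance UFD1 was not called in either test (adjusted p = 0.183 and 0.292). RAD23B, which shuttles ubiquitinated proteins to the proteasome, fell in BMP6 against control (-0.24 ± 0.07, adjusted p = 0.0207) and was not called in LH+BMP6 against LH (-0.07 ± 0.07, adjusted p = 0.556), with no call for the interaction (adjusted p = 1.00). The RAD23B call was lost without BMP6 replicate 2 (-0.19, adjusted p = 0.0719), control replicate 3 (-0.21, adjusted p = 0.0683) or the 3 faint arrays (-0.20, adjusted p = 0.181). ZFAND5, which activates the proteasome, rose in both (0.30 ± 0.08, adjusted p = 0.0181, and 0.29 ± 0.08, adjusted p = 0.0175), as did AKIRIN2, needed for nuclear import of proteasomes (0.22 ± 0.07, adjusted p = 0.0317, and 0.26 ± 0.07, adjusted p = 0.0119). In BMP6 against control the ZFAND5 call was lost in 7 of 32 alternative settings and the AKIRIN2 call in 13. For ZFAND5 the mean of its probe sets gave 0.11 (adjusted p = 0.347), and leaving out control replicate 2, BMP6 replicate 3, BMP6 replicate 4 or the 3 faint arrays gave 0.26 to 0.32 (adjusted p between 0.0579 and 0.0679). Its call in LH+BMP6 against LH was lost without LH replicate 2 (0.22, adjusted p = 0.0558) or LH+BMP6 replicate 4 (0.26, adjusted p = 0.0532). For AKIRIN2 in BMP6 against control, another probe set gave 0.16 (adjusted p = 0.201). Leaving out control replicate 2 or 3, BMP6 replicate 2, 3 or 4, or the 3 faint arrays gave 0.17 to 0.27 (adjusted p between 0.0545 and 0.117). POMP, the maturation factor of the core, was not called (0.12 ± 0.06, adjusted p = 0.182, and 0.09 ± 0.06, adjusted p = 0.368).

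Of 11 genes of the NFE2L1 and NFE2L2 axis, 2 rose and 0 fell in BMP6 against control, and 3 rose and 2 fell in LH+BMP6 against LH, beside 9.31% and 15.5% of all named genes in BMP6 against control and 11.7% and 15.5% in LH+BMP6 against LH. NFE2L1 encodes the factor that raises proteasome gene transcription when the proteasome is impaired. It was not called in BMP6 against control (-0.30 ± 0.11, limma adjusted p = 0.071) and fell in LH+BMP6 against LH (-0.34 ± 0.11, adjusted p = 0.0373). This call was lost in 11 of 32 alternative settings, among them without LH replicate 1 (-0.23, adjusted p = 0.139), LH+BMP6 replicate 1 (-0.33, adjusted p = 0.0755), LH+BMP6 replicate 2 (-0.29, adjusted p = 0.112), LH+BMP6 replicate 3 (-0.35, adjusted p = 0.0745) or the 3 faint arrays (-0.23, adjusted p = 0.108). In BMP6 against control NFE2L1 was called in 4 of 32, 3 of them the fits without LH replicate 1, control replicate 3 or BMP6 replicate 3 (adjusted p = 0.0298, 0.0462 and 0.0422). NFE2L2, the oxidative stress factor, was not called (0.18 ± 0.08, adjusted p = 0.149, and 0.04 ± 0.08, adjusted p = 0.78). Its target HMOX1, haem oxygenase, rose in both (0.67 ± 0.09 in each, adjusted p = 5.94e-05 and 5.47e-05), and the partner gene MAFG rose in both (0.74 ± 0.19, adjusted p = 0.0113, and 0.56 ± 0.19, adjusted p = 0.0465). The MAFG call in LH+BMP6 against LH was lost in 19 of 32 alternative settings, which include leaving out any 1 LH array or any 1 of LH+BMP6 replicates 1 to 3, and quantile normalisation, with values between 0.46 and 0.75 over all 32. MAFG without the 3 faint arrays was at 0.53 (adjusted p = 0.153) in BMP6 against control and 0.47 (adjusted p = 0.129) in LH+BMP6 against LH. GCLC, of the same list, went the other way. It was not called in BMP6 against control (-0.35, adjusted p = 0.125) and fell in LH+BMP6 against LH (-0.51, adjusted p = 0.0213). The GCLC call was lost in 6 of 31 alternative settings. Of the 11 genes 6 had a negative and 5 a positive difference in each test, so the list had no common direction. Among 16 genes for ubiquitin and its E1 and E2 enzymes, 2 rose in BMP6 against control and 4 in LH+BMP6 against LH, with 0 lower in each, while 9.31% and 11.7% of all named genes rose. UBE2G1 (0.49 ± 0.07, adjusted p = 0.000116) and UBE2B (0.39 ± 0.06, adjusted p = 0.000414), both ubiquitin-conjugating enzymes, rose in BMP6 against control. With the mean of its probe sets UBE2B was at 0.21 (adjusted p = 0.0689).

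Most interferon and antigen-processing genes were not called, which also held for the array as a whole. There 24.8% of all named genes were called in BMP6 against control and 27.2% in LH+BMP6 against LH. Of 18 genes of interferon signalling and response 5 rose, 1 fell and 12 were not called in BMP6 against control, with a median of 0.04 (9.31% of all named genes rose and 15.5% fell). The other test of BMP6, LH+BMP6 against LH, gave 5 that rose, 0 that fell and 13 were not called, with a median of 0.19 (11.7% and 15.5%). The genes that rose were the same in both tests. Of the 5, 4 encode receptor chains or a kinase of the pathway (IFNGR2, IFNAR1, IFNAR2 and JAK1, the last 2 named after their values were seen). IFNGR2 (0.69 ± 0.07, limma adjusted p = 2.98e-06) and IFNAR1 (0.70 ± 0.13, adjusted p = 0.00143) rose in BMP6 against control. So did IRF8, an interferon-regulated factor of myeloid and lymphoid cells (0.94 ± 0.28, adjusted p = 0.0246), whose call was lost without control replicate 2 (0.75, adjusted p = 0.0925) or BMP6 replicate 2 (0.67, adjusted p = 0.0852). IRF8 also rose in LH+BMP6 against LH (1.07 ± 0.28, adjusted p = 0.00998), a call lost without the 3 faint arrays (0.90, adjusted p = 0.0558). The gene that fell was UBE2L6, the conjugating enzyme of the ubiquitin-like protein ISG15 (-0.60 ± 0.13, adjusted p = 0.00289). It was not called in LH+BMP6 against LH (-0.25, adjusted p = 0.191).

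Of 12 class I antigen-processing genes 0 rose and 2 fell in BMP6 against control (15.5% of all named genes fell), and 0 were called in LH+BMP6 against LH, where 1 had an unadjusted p under 0.05. The 2 were TAPBP, the chaperone tapasin (-0.43 ± 0.09, adjusted p = 0.00209, and -0.13 ± 0.09, adjusted p = 0.359 in LH+BMP6 against LH), and ERAP2, an aminopeptidase that trims peptides (-0.68 ± 0.16, adjusted p = 0.00749, and -0.25 ± 0.16, adjusted p = 0.335). ERAP2 was at -0.43 (adjusted p = 0.136) in BMP6 against control without the 3 faint arrays. B2M, the light chain of class I, was not called (0.02 ± 0.05, adjusted p = 0.832).

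**Figure D5:**
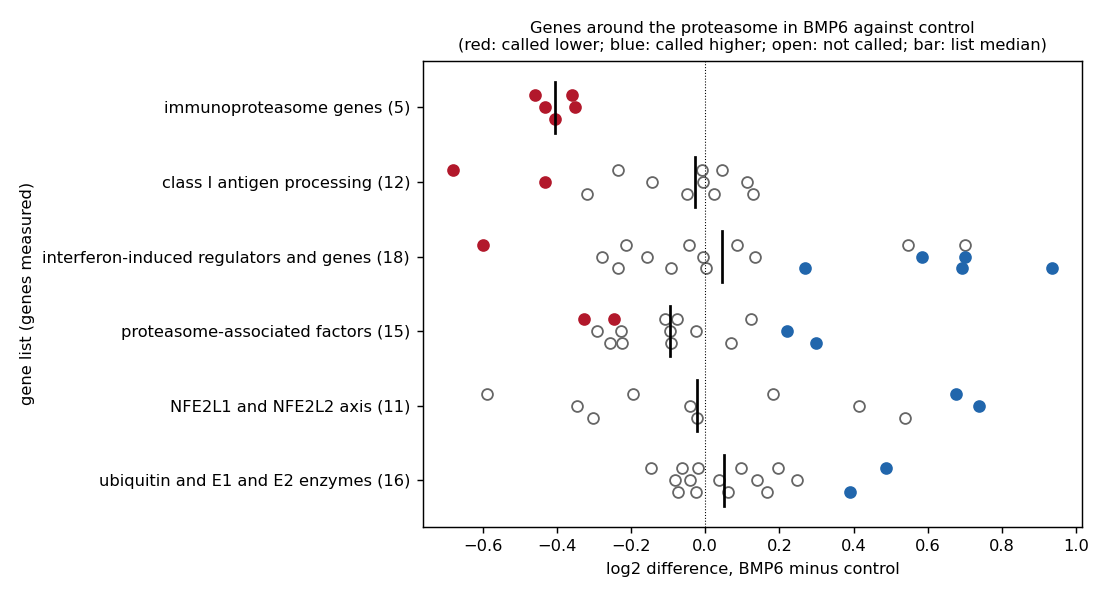
Fitted log2 difference in BMP6 against control of the immunoproteasome genes and of 5 lists of genes that work with the proteasome (1 point per gene, red where called lower, blue where called higher, open where not called), with a bar at the median of each list. The 5 immunoproteasome genes lie between -0.46 and -0.35, while the list of interferon signalling and response holds 5 genes called higher and 1 called lower.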

How the data were processed

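The deposited log2 signals were computed by the authors, per the submitters' processing notes, with robust multi-array averaging (RMA) in Affymetrix Expression Console, which corrects background, quantile-normalises and summarises each probe set. The number of arrays limits the precision. RMA draws low signals together and understates their fold changes. Of 24128 probe sets, 112 Affymetrix controls were left out. The platform annotation gave 13292 probe sets 1 symbol, 86 several and 10638 none. The proteasome genes came from 46 probe sets. Their values were compared with limma 3.58.1 in R 4.3.3 (lmFit, eBayes with intensity trend, Benjamini-Hochberg over 24016 probe sets, all 16 arrays, no covariate). Every adjusted p is from limma, unless it is named as a permutation p, and ± beside a difference is its SE. Within-array differences between 2 subunits were compared by exact permutation (scipy 1.17.1, 70 splits, two-sided).

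The members, lists and comparisons were chosen with earlier results of these data known. Every array's value was given for PSMB5 to PSMB10, PSME1, PSME2, the genes called in the remaining role groups and, where none was called, the gene with the largest difference. In each list of other genes up to 4 with the largest called difference in BMP6 against control were named, plus NFE2L1, NFE2L2, POMP, TAP1, TAP2, TAPBP and B2M. PSME3IP1, GCLC and the genes within 2 places of the immunoproteasome genes and PSMF1 were added after the values were seen. The 4 replicates came from separate ovary batches, but the labels do not say whether equal replicate numbers mark 1 batch. Same-numbered arrays had mean deviation correlations between 0.04 and 0.38 over the 4 comparisons, and arrays of different numbers between -0.12 and -0.01. Of the same-numbered pairs, 1 of 4 was over 0.1 in BMP6 against control and 3 of 4 in each of the other 3 comparisons. The highest single pair, in LH+BMP6 against BMP6, was at 0.69. These correlations do not settle whether equal numbers mark 1 batch. Since not every pair was over 0.1, the numbers were not used as a block in the main fit, and fits with a block are given below. The 32 alternatives cover normalisation, choice of probe set, dim probe sets (lowest 40%), the moderation of the variance, blocks and arrays left out.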

Additional observations from a re-analysis of the deposited data

Results flagged for a closer look

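Each gene was screened in each group for 1 array far from the other 3, by Dixon's ratio at its 95% critical value. Of the 160 groups screened 11 passed, and chance alone passes about 1 in 20. PSME1 read 11.89 on control replicate 1, above 11.65 on each of the other control arrays, and 11.40 on LH+BMP6 replicate 3, above 11.36 to 11.37. The array LH replicate 2 stood apart for 3 genes: PSMA5 read 11.13 against 10.82 to 10.87 on the other LH arrays, PSMD13 7.87 against 8.35 to 8.42, and PSMD9 8.03 against 8.30 to 8.35. PSMD13 also read 8.20 on LH+BMP6 replicate 1, against 8.03 to 8.05.

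Control arrays stood apart for PSMA1 (9.67 on replicate 3, against 9.60 to 9.61) and PSMC2 (10.98 on replicate 1, against 10.85 to 10.87). BMP6 arrays did so for PSMB4 (11.47 on replicate 1, against 11.55 to 11.56) and PSMC4 (9.62 on replicate 3, against 9.69 to 9.71). PSMG2 read 10.12 on LH+BMP6 replicate 4, against 10.25 to 10.26. Except for PSMD13 and PSMD9 with LH, PSMA5 with LH and PSME1 in control, these gaps are under 0.2 log2 units. The cause of these values was not tested.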

How the results depend on the processing

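No called result changed direction in any of the alternatives run. In BMP6 against control the count of proteasome genes that fell was 4 without the 3 faint arrays and 4 to 8 with single arrays or replicate numbers left out, and 1 gene rose (PSMC6, by its dimmer probe set) where the probe set with the largest variance stood for each gene. In LH+BMP6 against LH the count that fell was 2 in a fit of the compared arrays alone, 3 without the 3 faint arrays, 3 with the faint arrays as a term, and 0 to 9 with single arrays or replicate numbers left out. With the faint arrays as a term, PSMB8 and PSMB3 lost their call in BMP6 against control. PSMB3, PSMB5, PSMD4 and PSMF1 lost theirs in LH+BMP6 against LH. The fewer arrays and degrees of freedom in these fits also lower the counts. Replicate numbers are not known to pair the arrays. With the replicate number as a block 7 genes fell in BMP6 against control and 8 in LH+BMP6 against LH, 0 rose in either, and LH against control gave 0 calls. As a random block it gave 7 and 9. The block also gave NFE2L1 a call in BMP6 against control (-0.30, adjusted p = 0.0432). PSMB10, PSME1, PSME2 and PSMF1 fell in BMP6 against control in all 32 alternatives, PSMB9 in 29, PSMB8 in 25 and PSMB3 in 11. In LH+BMP6 against LH PSMB10 fell in 26, PSMB9, PSME2 and PSMF1 in 24 each, PSMB5 and PSMD4 in 22 each, PSMB3 in 16, PSMB8 in 3 and PSME1 in 1. The median SE of a difference was 0.10 log2 units at 4 arrays a group, so changes of that size could not be shown.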
